A study of Acanthocheilonema viteae with 2 samples.

Results

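Small RNAs that adult worms of the rodent filaria Acanthocheilonema viteae release into culture medium include miRNAs whose relatives in other animals are known from neurons and from muscle. The entries described here are those with a nematode species code and miR-124, miR-7, miR-9, miR-1 or miR-133 as the whole miRNA number in their name. The rule used names only and no measured value, but it was chosen with earlier results of these data known. It found 6 entries among 86 nematode-named entries and 384 entries in all, 4 of them counted as neuronal (miR-124 on 2 entries, miR-7, miR-9) and 2 as muscle (miR-1, miR-133). All 6 were read in both libraries, and each sequence stood on a single entry.

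The series holds 2 samples, 1 library from the medium of females and 1 from that of males, with no strain, genotype or number of worms given in the labels. The sexes were cultured separately, for 3 weeks at most, in RPMI with penicillin, streptomycin and glutamine, and the RNA came from the washed pellet of a spin at 100000 x g, the fraction that holds extracellular vesicles. Neither sex was replicated, so there is no test. A ratio thus sets a library against a library, not females against males, and each 95% interval covers counting error only. Summed over the table there were 292740 female and 74881.3 male reads. Of the female reads 87.4% stood on nematode-named and 6.71% on mammal-named entries, against 44.2% and 51.4% of the male reads. Values are therefore given as a share of all reads and as a share of worm reads, which are the reads of nematode-named entries and of predicted candidates (PC names, which give no species). A female/male ratio over worm reads is 1.92 times lower than over all reads, and the authors' normalization puts it 4.67 times higher.

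miRNAs are short RNAs that guide Argonaute proteins to partly matching mRNAs, mostly through the seed, bases 2 to 8 from the 5′ end, and lower the output of those mRNAs. A hairpin precursor can give a mature miRNA from either arm, named 5p and 3p, and ends can vary by a few bases. In animals as far apart as C. elegans and mammals, miR-124 is rich in neurons (in C. elegans in sensory neurons), and miR-1 is a muscle miRNA that in C. elegans tunes signalling between nerve and body wall muscle. The table holds miRNAs only, with no other marker of a cell type, so the tissue that gave these reads was not tested. More cells releasing an miRNA and more release per cell cannot be told apart in such libraries.

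The 6 deposited sequences are shown because the names, arms and ends of these entries rest on them. They are written 5′ to 3′ with T for U, and capitals mark the seed.
bma-miR-124_R-1: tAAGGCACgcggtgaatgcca
asu-miR-124-3p_R+2: tAAGGCACgcggtgaatgccaat
bma-miR-7_R+1: tGGAAGACttgtgattttgttgtt
bma-miR-9-3p: aTAAAGCTaggttaccaaagct
asu-miR-1-3p_R-1: tGGAATGTaaagaagtatgt
asu-miR-133-3p_R-1: aTTGGTCCccttcaaccagct

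The codes bma and asu stand for Brugia malayi and Ascaris suum, the species whose database miRNA each sequence resembles, and R-1 or R+2 for bases missing or added at the 3′ end. The sequences were 20 to 24 bases long and held 6 to 12 G or C bases. The 2 miR-124 entries were the only pair of the 6 with a common seed. The longer one held all 21 bases of the shorter and 2 more at the 3′ end, so the variation lay outside the seed. Of the 6 names 4 carried the label 3p and 0 the label 5p, while 16 other nematode-named entries in the table carried 5p. The remaining names of the 6 gave no arm, so these label counts do not show that no 5p arm was read. A further 16 nematode-named entries were named as an arm (p5 or p3) of a known hairpin, and 0 of these belonged to the 5 miRNA numbers. Whether a PC candidate comes from an opposite arm of these miRNAs was not tested.

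Entries counted as neuronal made up about 1% of the female library and less of the male. Together the 4 entries held 2842 female and 297 male reads, which is 0.971% (95% exact binomial interval 0.936 to 1.01) and 0.397% (0.353 to 0.444) of all reads. Among worm reads they held 1.04% and 0.817%. Without bma-miR-9-3p, whose count as neuronal rests on the number in its name, the shares of all reads were 0.705% and 0.274%. In all 4 of these entries the female share of all reads was 2-fold or more above the male share, as it was in 35.7% of the 112 nematode-named and candidate entries with at least 10 reads in a library. Over worm reads this held for 0 of the 4, against 8.04% of the 112. On the authors' normalized values all 4, and miR-1 of the muscle entries, were 2-fold or more above the male value, against 85.7% of the 112, and 0 of the 6 were 2-fold or more below it, against 5.36%. The ratios of the 4 neuronal entries ran from 2.16 to 3.44 over all reads, with a median of 2.79, against a median of 1.37 over the 112 entries with a count of 0 set to 3 reads. The shares of the 112 with a female excess are minimums, since 26 of them had 0 male reads and were set to 3. The 112 are entries, not different names. The candidates PC-3p-65_3608 and PC-5p-9561_45 each stood there more than once, every time with a 2-fold or greater female excess over all reads.

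The main neuronal entry was bma-miR-124_R-1, with 1828 female and 187 male reads. It took 0.624% of all female reads (0.596 to 0.654) and 0.250% of all male reads (0.215 to 0.288), and the female/male ratio was 2.50 (2.15 to 2.92). Over worm reads the shares were 0.669% and 0.514%, with a ratio of 1.30 (1.12 to 1.52), so the interval stayed above 1 on both scales. By reads it ranked 20 of the 86 nematode-named entries among female secretions and 23 among male ones. The longer form asu-miR-124-3p_R+2 had 61 female and 5 male reads. Its ratio was 3.12 (1.27 to 9.95); over worm reads it was 1.62, with an interval from 0.660 to 5.18 that spans 1. Of the nematode-named miR-124 reads it made up 3.23% (2.48 to 4.13) among females and 2.60% (0.851 to 5.97) among males, and these intervals overlap.

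**Figure D1:**
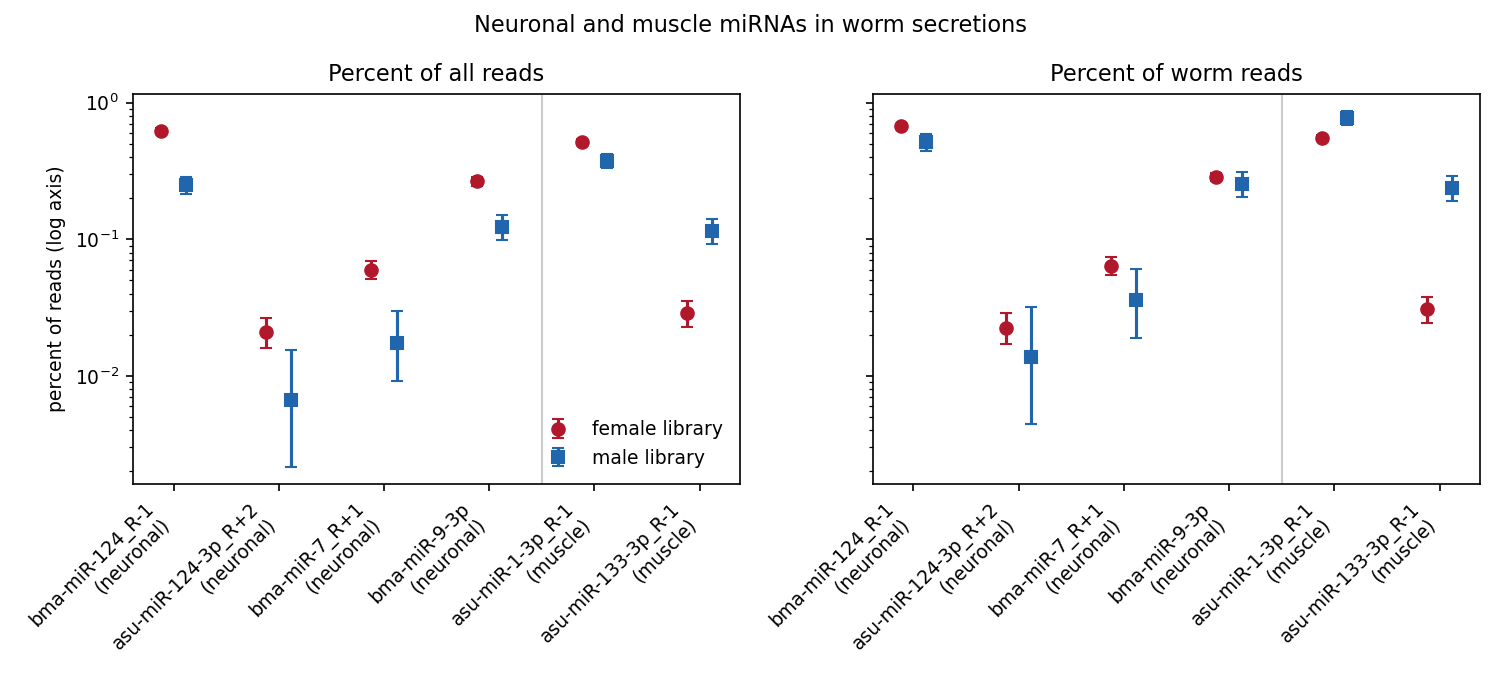
Share of each of the 6 entries in the female library (circles) and the male library (squares), as percent of all reads (left) and of worm reads (right) on a log axis, with 95% exact binomial intervals for counting error. In the left panel the 4 neuronal entries and miR-1 have the larger female share, and miR-133 has the larger male share on both panels.

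The miR-7 entry, bma-miR-7_R+1, was rarer than miR-124 in both libraries. In flies and mammals miR-7 acts in sensory and secretory cells of the nervous system. It had 175 female and 13 male reads, or 0.0598% and 0.0174% of all reads. Its ratio over all reads, the highest of the 6, was 3.44 (1.96 to 6.60), and that over worm reads was 1.79 (1.02 to 3.43). These intervals are wide, and they overlap those of the other 3 neuronal entries on each scale.

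For miR-9 only the 3p arm was read. In mammals miR-9 is known from neural progenitors mainly through its 5p arm, while the C. elegans counterpart of the 3p arm, miR-79, acts in the epidermis and affects the migration of neurons. Its count as a neuronal miRNA therefore rests on the number in its name. The entry bma-miR-9-3p had 778 female and 92 male reads, 0.266% and 0.123% of all reads, and a ratio of 2.16 (1.74 to 2.72). Over worm reads the shares were 0.285% and 0.253%, and the ratio of 1.13 had an interval (0.906 to 1.41) that spans 1. Leaving this entry out put the neuronal ratio at 2.58 (2.23 to 2.99) for all and at 1.34 (1.16 to 1.56) for worm reads. One candidate, PC-3p-26492_13, held the same seed and the same first 10 bases as bma-miR-9-3p and differed from base 11 on (G11A, counted from the 5′ end). It had 18 female and 6 male reads and a ratio of 0.767 (0.292 to 2.36). Of the reads with that seed, the miR-9 entry gave 97.7% among females and 93.9% among males.

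The 2 muscle miRNAs went apart from each other. The entry asu-miR-1-3p_R-1 had 1516 female and 280 male reads, 0.518% (0.492 to 0.545) and 0.374% (0.331 to 0.420) of all reads, with a ratio of 1.38 (1.22 to 1.58). Over worm reads it held 0.555% and 0.770%, and the ratio of 0.721 (0.634 to 0.822) lay on the male side. Its side thus depended on the scale. By reads it ranked 22 of the 86 nematode-named entries among female secretions and 18 among male ones.

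The entry asu-miR-133-3p_R-1 had nearly equal read numbers, 84 female and 86 male, in libraries of unequal size. In vertebrates miR-133 is made from the same transcripts as miR-1 and acts in skeletal and heart muscle. Its share of all reads was 0.0287% (0.0229 to 0.0355) for females and 0.115% (0.0919 to 0.142) for males, a male excess of 4.00-fold (2.93 to 5.47). Over worm reads the male excess was 7.69-fold (5.62 to 10.5). Of the 2 muscle entries this 1 thus passed a 2-fold male excess on both share scales, which 18.8% of the 112 worm entries passed over all reads and 33.9% over worm reads. On the authors' normalized values, 91.8 female and 78.7 male, it lay on the female side with a ratio of 1.17 (0.853 to 1.595), whose interval spans 1.

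**Figure D2:**
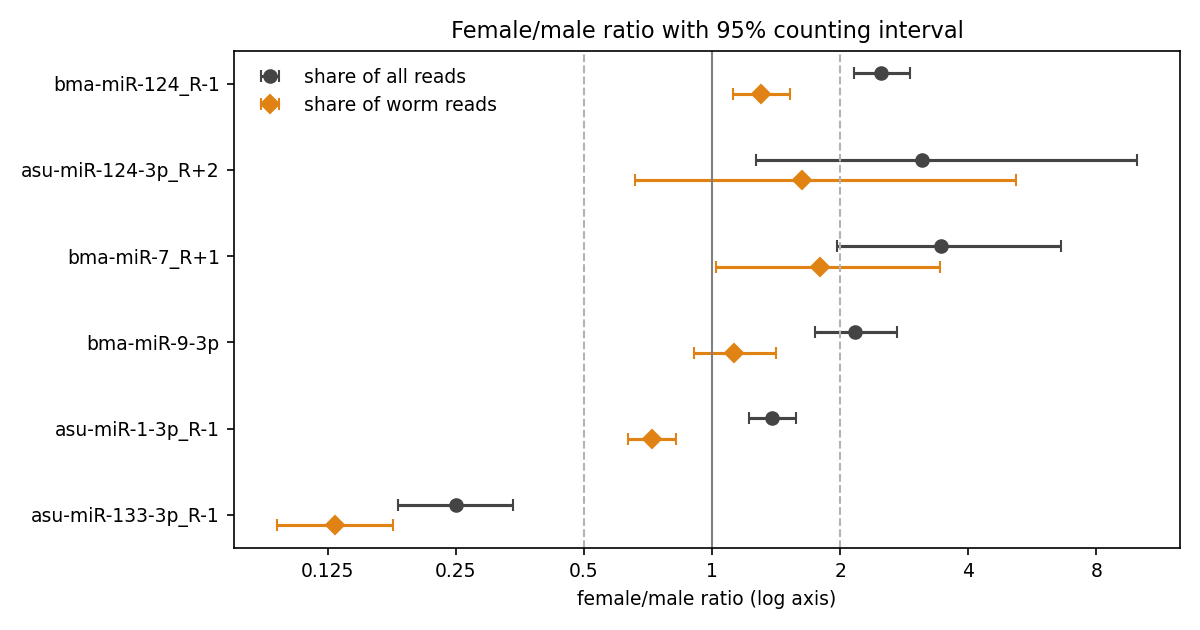
Female/male ratio of each entry on a log axis, over all reads (circles) and over worm reads (diamonds), with 95% exact conditional binomial intervals for counting error; the solid line marks 1 and the dashed lines a 2-fold difference. miR-133 lies at 0.250 and 0.130, apart from the other 5 entries.

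The order of the entries by reads differed between the libraries. In the female library miR-124 came first with 1828 reads (95% Poisson interval 1745 to 1914), before miR-1 with 1516 (1441 to 1594), and these intervals do not overlap. In the male library miR-1 came first with 280 reads (248 to 315), before miR-124 with 187 (161 to 216), again without overlap. The third place went to miR-9 in both. In the male library it was not separated from miR-133 by counting error, with 92 (74.2 to 113) and 86 reads (68.8 to 106), whereas in the female library miR-9 had 9.26 times the reads of miR-133. The lowest neighbours overlapped in both libraries, miR-133 and the longer miR-124 in the female, and miR-7 and the longer miR-124 in the male. Reads of different sequences are set side by side here as counts per mature sequence, and how well each was captured was not tested.

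Shares within a library do not depend on how the 2 libraries are scaled, and on this measure the libraries differed. They may still include mammalian RNA, since mammal-named entries took 6.71% of the female library and 51.4% of the male one. Shortened reads of mammalian miR-124 or miR-1 could fall on bma-miR-124_R-1 or asu-miR-1-3p_R-1. The mammal-named miR-124 and miR-1 sequences had 61 and 24 female reads and 0 and 0 male reads. How many shortened reads there were was not tested. Neuronal reads made up 64.0% (62.5 to 65.4) of 4442 neuronal and muscle reads from females and 44.8% (41.0 to 48.7) of 663 from males. The neuronal to muscle ratio was 1.78 for females and 0.811 for males, and the first was 2.19 times the second (1.85 to 2.59). Against miR-1 alone, miR-124 (bma-miR-124_R-1) was 1.81 times higher in the female library (1.48 to 2.21), miR-9-3p 1.56 times (1.21 to 2.03) and miR-7 2.49 times (1.39 to 4.83). For the longer miR-124 this value was 2.25 with an interval that spans 1 (0.903 to 7.25). The 2 muscle entries also differed from each other. The ratio of miR-133 to miR-1 was 0.0554 for females and 0.307 for males, a double ratio of 0.180 (0.128 to 0.254), and miR-133 made up 5.25% (4.21 to 6.46) and 23.5% (19.2 to 28.2) of the muscle reads. Among the neuronal entries no such split was seen, since against bma-miR-124_R-1 the female-to-male double ratio was 0.865 (0.661 to 1.14) for miR-9-3p, 1.38 (0.765 to 2.69) for miR-7 and 1.25 (0.498 to 4.03) for the longer miR-124. These intervals all span 1 and leave room for differences of up to their bounds. In all 10 such double ratios were computed, with no adjustment of the intervals.

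**Figure D3:**
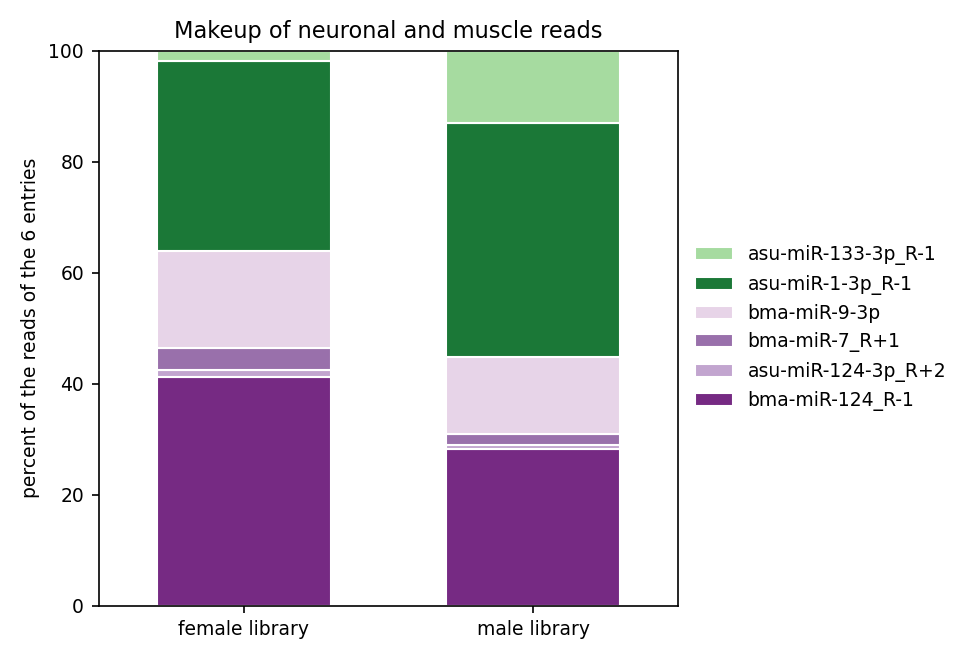
Percent of the reads of the 6 entries that each entry took, in the female library (4442 reads) and the male library (663 reads); purple shades are neuronal and green shades muscle entries. Neuronal entries fill 64.0% of the female and 44.8% of the male bar, and miR-133 fills 1.89% and 12.97%.

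With each entry left out of its sum in turn, the neuronal share was higher in the female library every time. Without miR-133 it was 65.2% for females and 51.5% for males, and without bma-miR-124_R-1 it was 38.8% and 23.1%. Left without miR-1, the muscle side was miR-133 alone, and the share was 97.1% and 77.5%.

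Set against other worm miRNAs, the neuronal entries lay in the upper part of the female/male order and miR-133 near its lower end. Of the 112 nematode-named and candidate entries with at least 10 reads in a library, 12 had a higher ratio than miR-7, 19 than the longer miR-124, 24 than bma-miR-124_R-1 and 33 than miR-9-3p. For miR-1 this number was 54, close to the middle, and for miR-133 it was 103. These counts are minimums, since 26 of the 112 entries had 0 male reads and were set to 3. Of those 26, a further 22 could lie above miR-7, 20 above the longer miR-124, 19 above bma-miR-124_R-1, 14 above miR-9-3p and 9 above miR-1. The median ratio over the 83 of these entries read in both libraries was 1.23 over all reads, and a ratio taken relative to that median is free of the scale. On that measure bma-miR-124_R-1 lay 2.03 times, miR-7 2.79 times, miR-9-3p 1.76 times and miR-1 1.12 times above the median in the female direction, and miR-133 lay 4.93 times below it. The 83 leave out 26 entries with 0 male reads and 3 with 0 female reads. Over all 112, with a count of 0 set to 3, the median was 1.37, close to the 1.38 of miR-1. Against that median the distances in the female direction are shorter and that of miR-133 is longer. Among 40 other nematode-named entries with at least 100 reads over both libraries, the ratios nearest to that of bma-miR-124_R-1 were those of bma-miR-5843_1ss11TC (2.64), bma-miR-92_R+2 (2.65) and bma-miR-100b_R+1 (2.29). The nearest to asu-miR-1-3p_R-1 (1.38) were bma-miR-2a (1.37), asu-miR-81a (1.44) and asu-miR-83-3p_1ss20CT (1.29). Likeness here is the distance of log2 ratios between 2 libraries and says nothing more.

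**Figure D4:**
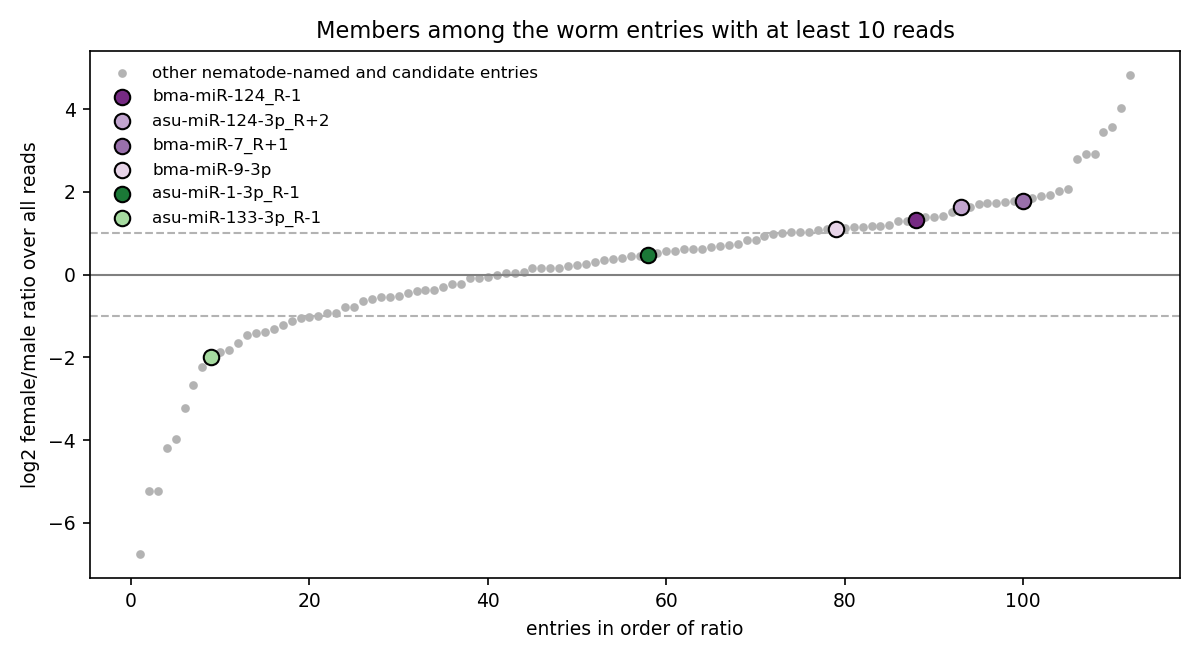
log2 female/male ratio over all reads of the 112 nematode-named and candidate entries with at least 10 reads in a library, in order of ratio, with the 6 entries marked; an entry at 0 reads was set to 3 reads, and the dashed lines mark a 2-fold difference. The 4 neuronal entries lie above the upper dashed line, miR-1 near the middle and miR-133 below the lower line.

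Mammal-named entries with the same miRNA numbers numbered 5, on 4 sequences, and fell into kinds by how they relate to the worm-named sequence. The mammal-named miR-124 sequence, on 2 entries, began with all 21 bases of bma-miR-124_R-1 and had 3 more. The mammal-named miR-1 entry began with all 20 bases of asu-miR-1-3p_R-1 and had 2 more. Names alone therefore do not separate worm from mammal here. These 2 sequences had 61 and 24 reads from females and 0 and 0 from males. Among all miR-124 reads the mammal-named sequence took 3.13% (2.40 to 4.00) in the female library and none of the 187 plus 5 reads in the male, with an exact upper limit of 1.90% (3 reads would be 1.56%). Among all miR-1 reads it took 1.56% (1.00 to 2.31) and none of the 280, with an exact upper limit of 1.31% (3 reads would be 1.07%). Of the 175 mammal-named entries with at least 10 reads in a library, 7.43% passed a 2-fold female excess over all reads and 89.7% a 2-fold male excess.

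The other 2 mammal-named entries differed from the worm-named sequence by a base within it. Mammal-named miR-7 differed at a single position (T10A), with 14 female and 23 male reads, a male excess of 6.42-fold over all reads (3.17 to 13.5). It made up 7.41% (4.11 to 12.1) of all miR-7 reads from females and 63.9% (46.2 to 79.2) of those from males. Most female miR-7 reads thus carried the worm-named sequence. In the male library the interval does not settle which of the 2 sequences had more reads. Mammal-named miR-133a differed at the first base (A1T) and had 2 more bases at its end, with 12 reads in each library, a male excess of 3.91-fold (1.61 to 9.51). It took 12.5% (6.63 to 20.8) and 12.2% (6.49 to 20.4) of all miR-133 reads, so the worm-named and mammal-named forms of miR-133 stood in about the same proportion in both libraries. Mammal-named entries of 4 further muscle miRNA numbers (miR-206, miR-208, miR-486 and miR-499) held 69 female and 131 male reads, and no entry of the table used here was named miR-206. The part of mammalian RNA in the male excess of asu-miR-133-3p_R-1 was not tested.

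Of other miRNAs known from the nervous system of C. elegans, a list of 6 numbers and lsy-6 gave 6 nematode-named entries, for miR-71, miR-228 and miR-234. No entry was named miR-79, miR-791 or lsy-6, and no nematode-named entry miR-137. Absence here is of a name only. The entry bma-miR-9-3p, described above, is the counterpart of miR-79, which acts in the epidermis in C. elegans. The glial miRNA bma-miR-228 (3005 and 47 reads) had a ratio of 16.4 (12.3 to 22.3), while bma-miR-71_R+4, which acts in sensory neurons and in ageing, was level over all reads at 0.997 (0.937 to 1.06). Over worm reads bma-miR-71_R+4 lay on the male side at 0.519 (0.488 to 0.552), and bma-miR-228 stayed on the female side at 8.51. The neuronal miRNA bma-miR-234_R+3 had 88 female and 0 male reads, 7.50-fold higher for females against a floor of 3 male reads, with a 95% lower limit of 5.98. The opposite arm of miR-71, bma-mir-71-p3, had 40 and 0 reads, 3.41-fold higher against that floor, with a lower limit of 2.65. Of the 5 entries of the list with at least 10 reads, 3 passed a 2-fold female excess over all reads and 0 a male one, against 35.7% and 18.8% of the 112 worm entries. Over worm reads these counts were 2 and 1, against 8.04% and 33.9%. The entry with the male excess was str-miR-71-5p_R+1 (82 and 26 reads), at 0.420 (0.267 to 0.680) over worm and 0.807 over all reads. The ratio of the summed list was 1.55 (1.46 to 1.64) by all and 0.808 by worm reads, so it changed side with the scale. Of the summed 8213 female and 1354 male reads, bma-miR-71_R+4 alone held 4993 and 1281.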

How the data were processed

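Small RNA from female and male culture medium (1 library each) was made into libraries with an Illumina TruSeq kit, per the labels' protocols. The authors deposited 384 entries (18 to 26 nt) with a raw column of expected counts and a normalized column, treated as a signal, that is a fixed multiple of the raw column in each library. Aligner and miRNA database: not given in the sources used here. Unused per-sample columns numbered 0.

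Members and lists were chosen with earlier results of these data known. Entries were sorted by species code. Shares carry exact Clopper-Pearson and ratios exact conditional 95% intervals, on counts rounded to whole numbers. Double ratios carry exact conditional intervals. An entry at 0 was set to 3 reads, equal to 0.00102% (female) and 0.00401% (male) of all reads. Both intervals and floors are for counting error alone, because sequencing reads are no count of molecules. The call rule is a ratio of at least 2 among entries with at least 10 reads in a library. It was run on simulated data with counting noise only, which cannot show how calls hold up against variation between libraries. The genes named are all members, entries that share a seed or number with them, fixed lists (nervous system of C. elegans, mammalian neuron-rich, muscle and other sources) and the 3 entries nearest in ratio to miR-124 and miR-1. Alternatives were other scales (worm reads, nematode-named reads, the authors' values, median-of-ratios, edgeR 4.0.16 TMM), memberships, minimums and merged sequences. Python 3.11.15, scipy 1.17.1 and R 4.3.3 were used.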

Additional observations from a re-analysis of the deposited data

How the results depend on the processing

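A scale multiplies every female/male ratio by 1 constant, so direction rests on it. The neuronal sum, 2.45 over all reads, was 1.27 over worm reads, 1.24 over nematode-named reads, 11.4 on the authors' normalized values, 16.3 with median-of-ratios and 13.2 with TMM, on the female side each time. The muscle sum, 1.12 over all reads, was 0.582, 0.566, 5.22, 7.45 and 6.04 on these scales. miR-133, at 0.250 over all reads, turned to the female side with 1.17 on the authors' values, 1.67 with median-of-ratios and 1.35 with TMM. Median-of-ratios and TMM were computed with mammal-named entries included, which are 255 of the 384. Those with at least 10 reads and read in both libraries had a median male/female ratio of 9.06. On the authors' values, median-of-ratios and TMM, 96, 101 and 99 of the 112 worm entries had a 2-fold or greater female excess. The female side on these scales is thus not particular to the neuronal entries. The neuronal share of neuronal and muscle reads, 64.0% female and 44.8% male, became 56.3% and 35.9% without miR-9-3p, 38.8% and 23.1% without bma-miR-124_R-1, 97.1% and 77.5% without miR-1, 62.5% in the female library without miR-7, and 51.5% in the male library without miR-133. The sums and shares stayed within their intervals with membership by seed, with mammal-named entries added and with identical sequences merged.

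Of 112 worm entries, the 40 with a 2-fold or greater female excess became 9 over worm and 9 over nematode-named reads, 96 on the authors' values, 101 with median-of-ratios, 99 with TMM, 24 with at least 100 reads and 23 with intervals wholly beyond 2-fold. The 21 with such a male excess became 38, 39, 6, 5, 5, 7 and 11 under the same alternatives. Without a minimum of reads both counts stayed within 1.5 times. Adding 0.5 reads moved no entry beyond its interval. No paired analysis was possible because each sex has 1 library. Precision is limited by the male library, where the longer miR-124 had 5 and miR-7 had 13 reads.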

Other observations

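Mammal-named miRNAs known from neurons and muscle, other than those with the numbers above, were scarce and lay on the male side. A list of mammalian neuron-rich miRNAs (miR-128, miR-129, miR-132, miR-137, miR-218) summed to 9 female and 54 male reads over 5 entries, a male excess of 23.5-fold over all reads (95% counting interval 11.5 to 54.0). Within it miR-128 had 0 female and 11 male reads, miR-132 had 0 and 7, miR-218 had 0 and 18 on 1 sequence, and miR-137 had 9 and 18. The nematode-named bma-miR-234_R+3 shares its first 9 bases with mammal-named miR-137 and had 88 female and 0 male reads. A list of mammalian muscle miRNAs (miR-206, miR-208, miR-486, miR-499) summed to 69 female and 131 male reads, a male excess of 7.42-fold (5.50 to 10.1). Most of these were miR-486, known from red blood cells as well as muscle, with 52 and 107 reads on 1 sequence, while miR-499, a heart and slow muscle miRNA, had 17 and 17. All 4 entries of the 2 lists with at least 10 reads passed a 2-fold male excess, as did 89.7% of mammal-named entries. Among those 4 are 2 miR-486 entries on 1 sequence. The reads of miR-218 and miR-499 were each split over 2 entries, which left 9 and 8.5 male reads per entry, below the minimum.

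A list of miRNAs of other mammalian sources (liver, blood, epithelium, fibroblast) summed to 5215 female and 10455 male reads, a male excess of 7.84-fold (7.58 to 8.10). Most of these reads, 3156 female and 8346 male, stood on a single miR-21 sequence, so the sum mainly follows that miRNA. Of the 9 miRNA numbers in the list 6 were found (miR-21, miR-122, miR-143, miR-145, miR-203 and miR-205). The list may thus not cover every source named. Of its 12 entries 10 passed a 2-fold male excess, and 2 epithelial ones, miR-205 and miR-203, a female one, with 591 and 568 reads against 0 in the male. Among all 175 mammal-named entries with at least 10 reads these shares were 89.7% and 7.43%, and the 12 entries stand on 9 sequences.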
